A study of Mus musculus with 24 samples.

Results

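The genes followed here were the PDGF (platelet-derived growth factor) ligands Pdgfa, Pdgfb, Pdgfc and Pdgfd, the receptors Pdgfra and Pdgfrb, and the pericyte genes Rgs5 and Cspg4, 8 of the 37991 genes in the count table. They were taken by symbol, through the Ensembl identifiers of the GENCODE M1 annotation, and all 8 were measured and passed the filter on low counts, which kept 14918 genes. The study followed mammary tumor progression in mice by RNA sequencing of 24 samples, 3 from PyMT and 3 from FVB mice at each of 4 ages. PyMT samples came from F1 females heterozygous for the polyoma middle T transgene, bred from MMTV-PyVT males and FVB females, and were labelled by stage, with hyperplasia in the week 6 group, adenoma/MIN (mammary intraepithelial neoplasia) in the week 8 group and, for weeks 10 and 12, early and late carcinoma. Controls were age-matched FVB females without the transgene, whose normal glands were collected. The MMTV promoter drives the transgene mainly in mammary epithelium, and expression of the transgene itself was not analysed here. Each sample was bulk tissue from 1 mouse, from which total RNA was depleted of ribosomal RNA, so fewer cells of a type and less RNA per cell cannot be told apart in any value below.

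On the mm9 build, Pdgfa (ENSMUSG00000025856) lies on chromosome 5 from 139451968 to 139473324 on the minus strand, and an exon of 6330403L08Rik on the other strand overlaps it. Pdgfb (ENSMUSG00000000489) spans 79826330 to 79845238 of chromosome 15, minus strand. Pdgfc (ENSMUSG00000028019) runs from 80840338 to 81017962 of chromosome 3 on the plus strand, where its exons share bases with the processed transcript Gm16000 on the minus strand. Pdgfd (ENSMUSG00000032006) covers 6168612 to 6378843 of chromosome 9, plus strand. Pdgfra (ENSMUSG00000029231) lies at 75548316 to 75594229 of chromosome 5 and Pdgfrb (ENSMUSG00000024620) at 61204804 to 61244715 of chromosome 18, both on the plus strand. Rgs5 (ENSMUSG00000026678) is at 171585632 to 171625944 of chromosome 1 and Cspg4 (ENSMUSG00000032911) at 56712911 to 56747677 of chromosome 9, again on the plus strand. All 8 are protein coding and counts were taken over the whole gene. The libraries were directional, but the strand setting of the counting is not given in the sources used here. Whether the antisense exons affected the counts of Pdgfa and Pdgfc was not tested.

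PDGFs are secreted dimers that bind and pair receptor tyrosine kinases on the cell surface. PDGF-AA and PDGF-CC act mainly through the alpha receptor, which marks fibroblasts and other mesenchymal cells, while PDGF-BB also binds the beta receptor. Endothelial cells of sprouting vessels release PDGF-B, and the beta receptor on pericytes, the mural cells wrapped around capillaries, draws them to the vessel wall. Rgs5, a regulator of G protein signalling, and Cspg4, the NG2 proteoglycan, are common markers of those pericytes.

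The promoters of 3 genes are shown, because Pdgfra and Rgs5 were lower in PyMT samples at all 4 ages and Pdgfc was not. Each holds 250 bases before and 50 bases after the start of the gene, 5′ to 3′ on the strand of the gene, from RefSeq on GRCm38.p6, a later build than that of the counts. They are chr5:75152001-75152300 for Pdgfra, chr1:169655251-169655550 for Rgs5 and chr3:81036166-81036465 for Pdgfc, all on the plus strand. Capitals mark the match to CCAAT, read on the opposite strand, in Rgs5 and the match to the CArG box, the site of serum response factor, in Pdgfc.
Pdgfra: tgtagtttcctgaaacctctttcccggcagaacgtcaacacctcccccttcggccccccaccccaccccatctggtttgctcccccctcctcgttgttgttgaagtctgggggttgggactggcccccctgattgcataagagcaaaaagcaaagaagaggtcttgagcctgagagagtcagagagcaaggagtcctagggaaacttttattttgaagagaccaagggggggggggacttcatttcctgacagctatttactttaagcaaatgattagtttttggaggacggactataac
Rgs5: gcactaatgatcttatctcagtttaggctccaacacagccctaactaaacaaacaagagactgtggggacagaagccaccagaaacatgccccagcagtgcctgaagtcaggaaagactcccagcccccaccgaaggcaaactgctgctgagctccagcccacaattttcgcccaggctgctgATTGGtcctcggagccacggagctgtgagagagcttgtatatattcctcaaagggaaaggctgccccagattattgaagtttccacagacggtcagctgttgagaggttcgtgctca
Pdgfc: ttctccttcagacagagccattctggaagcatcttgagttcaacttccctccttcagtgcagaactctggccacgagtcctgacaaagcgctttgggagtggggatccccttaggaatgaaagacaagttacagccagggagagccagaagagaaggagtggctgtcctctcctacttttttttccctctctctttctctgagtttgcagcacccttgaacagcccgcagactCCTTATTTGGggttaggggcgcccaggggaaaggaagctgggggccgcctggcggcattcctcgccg
Both strands of all 32851 promoters in the RefSeq set were searched for CCAAT, held by 37.4% of them, for GGGCGG (35.7%), for TATAAA (13.6%) and for the CArG box (1.63%). The Pdgfra window held no match to any of these 4 motifs. The GC content was 51.0% for Pdgfra, 52.3% for Rgs5 and 55.0% for Pdgfc, around the median of 52.7% over all promoters, and the windows held 5, 6 and 8 CpG sites against a median of 7. Among the other members, GGGCGG matched 2 times in the Cspg4 promoter and 1 and 2 times in the promoters of Pdgfa, and TATAAA matched 1 time in that of Pdgfd. No promoter of Pdgfb or Pdgfrb is described here. A match describes the letters only, since no binding was measured.

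Total counts per sample ran from 6969375 to 13516601, and values are given as normalized counts, the raw counts divided by the size factor of each sample. In 13 libraries, 6 PyMT and 7 FVB, the distribution of genes over counts had a second peak between 8 and 25 counts. Among 3799 genes with a median of 10 to 30 CPM (counts scaled to a common library size), up to 4.396% were at 0 in such a library (FVB week 10 replicate 3), compared with at most 0.211% in the other 11 libraries. All 3 PyMT samples of week 6 and all 3 FVB samples of week 10 were among the 13, so the members of low count are less certain there. Luminal epithelial genes were present in every sample, with a summed level of 21160 to 40310 in PyMT and 4341 to 19110 in FVB samples, and adipocyte genes summed to 956.4 to 13670 in PyMT and 40480 to 98550 in FVB samples. A gene was called at an adjusted p below 0.05 and a change of more than 2-fold in the quasi-likelihood test of edgeR, adjusted by the method of Benjamini and Hochberg over all 14918 genes.

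Over all ages, 7 of the 8 genes were lower in PyMT samples than in FVB samples and none was called higher. The fit that held week as a term and compared 12 PyMT with 12 FVB samples called Pdgfa, Pdgfb, Pdgfd, Pdgfra, Pdgfrb, Rgs5 and Cspg4 lower, where it called 17.2% of all genes lower and 8.51% higher. The median log2 fold change of the 8 members was -2.11, compared with -0.03 over all genes. The members were chosen with earlier results of these data known, so the shares of all genes stand beside their counts as a description only. Cspg4 had the largest fold, 7.12, and Pdgfc, at 1.13-fold, was the member that did not pass. Taking the 4 ages separately, 5, 6, 5 and 6 members were called lower from week 6 to week 12, against 6.46%, 6.37%, 9.13% and 13.0% of all genes. No member was called higher in any week, where 3.58%, 3.57%, 4.74% and 7.75% of genes were. At an unadjusted p below 0.05, 6 members were lower at each age, as were 2283, 2338, 2537 and 3160 of the 14918 genes from week 6 to week 12. Pdgfc was 1.58-fold higher at week 12 at that level, as were 2800 genes.

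**Figure D1:**
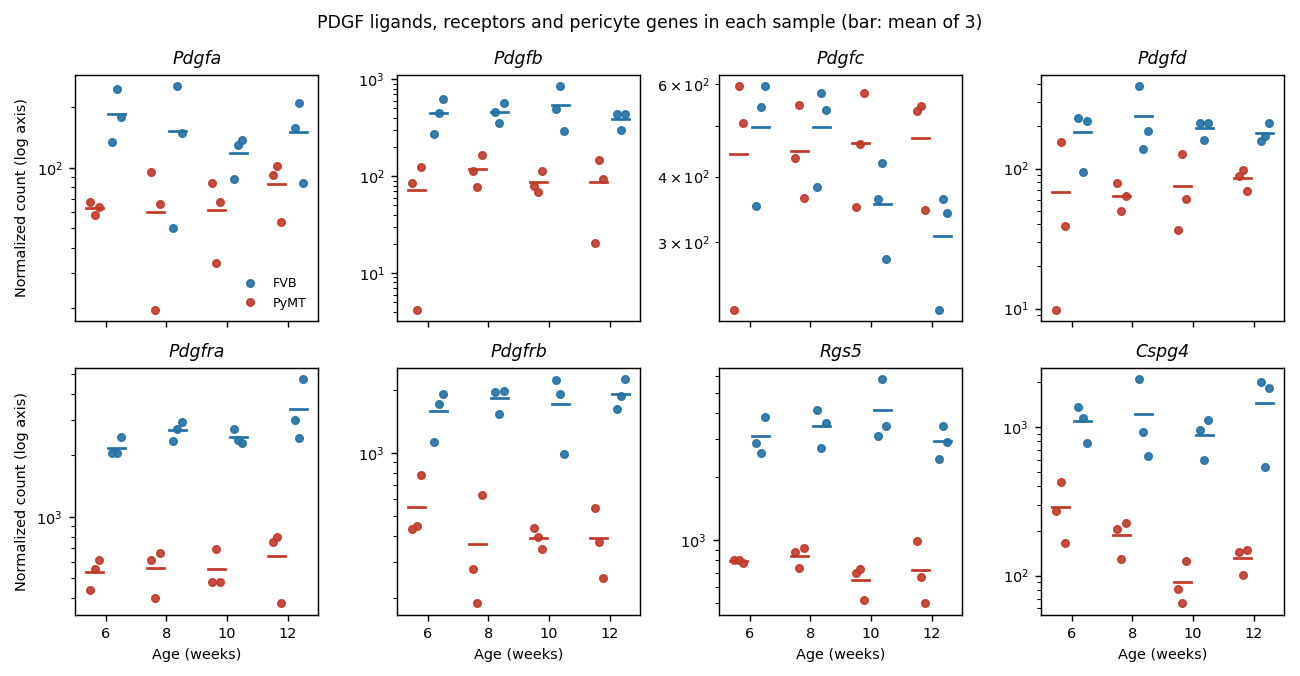
Normalized counts (log axis) of the 8 genes against age in weeks, with FVB samples in blue and PyMT samples in red; each point is 1 sample and each bar the mean of 3. Every PyMT point of Pdgfra, Pdgfrb, Rgs5, Cspg4 and Pdgfb lies below every FVB point of the same gene, while the points of Pdgfc overlap.

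Among the ligands, Pdgfb, which encodes the B chain made by endothelium and platelets, fell the most. Pdgfb counts in PyMT samples were 84.6, 4.17 and 125 (week 6), 114, 77.8 and 166 (week 8), 79.2, 69.2 and 113 (week 10) and 20.6, 145 and 93.3 (week 12). Pdgfb reached 270.0, 451 and 621 (week 6), 458, 351 and 567 (week 8), 489, 859 and 293 (week 10) and 437, 299.9 and 438 (week 12) in FVB samples. The highest PyMT value, 166, was below the lowest FVB value, 270.0, and 1 PyMT library, week 6 replicate 2, stood far below the rest at 4.17. Over all weeks Pdgfb was 5.01-fold lower in PyMT samples (log2 fold change -2.32 ± 0.34 SE, n = 12 per genotype, edgeR quasi-likelihood test, adjusted p = 3.40e-06). By week the log2 fold changes were -2.61 ± 0.86, -1.92 ± 0.36, -2.60 ± 0.45 and -2.13 ± 0.58 (SE, n = 3 per group), with adjusted p of 0.0916, 0.0172, 0.00683 and 0.0276, so that week 6 did not pass. All 4 differences pointed down, and the call of week 10 and that over all weeks held under each alternative run. Week 6 passed without PyMT week 6 replicate 2, at -2.04 with an adjusted p of 0.0283, and also with DESeq2 (0.0064), limma voom (0.0353), no filter on low counts (0.0337) and the fit of all 24 samples (0.0155). The call of week 8 was lost in the fit of all 24 samples (edgeR, adjusted p = 0.0586) and without PyMT week 8 replicate 1 (0.0772) or FVB week 8 replicate 3 (0.0595), and that of week 12 without FVB week 12 replicate 1, FVB week 12 replicate 3 or PyMT week 12 replicate 3 (adjusted p of 0.055, 0.0699 and 0.0863).

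Pdgfa, the A chain, which epithelium of many organs secretes towards alpha receptors on the mesenchyme, was low in all samples. Pdgfa counts in PyMT samples were 67.7, 58.4 and 63.5 (week 6), 95.4, 19.7 and 65.9 (week 8), 84.5, 33.5 and 67.4 (week 10) and 92.5, 103 and 53.6 (week 12). Pdgfa reached 134, 246 and 178 (week 6), 50.5, 256 and 149 (week 8), 87.7, 129 and 138 (week 10) and 157, 210.5 and 84.2 (week 12) in FVB samples. The groups did not overlap at weeks 6 and 10 and overlapped at weeks 8 and 12, where single FVB samples fell to 50.5 and 84.2. Pdgfa was 2.22-fold lower over all weeks (log2 fold change -1.15 ± 0.28 SE, edgeR quasi-likelihood test, adjusted p = 0.00121). In single weeks it passed at week 6 (-1.56 ± 0.40 SE, adjusted p = 0.0406) and not at weeks 8, 10 and 12, with log2 fold changes of -1.30, -0.87 and -0.82 and adjusted p of 0.307, 0.353 and 0.203. The week 6 call was lost when any 1 of its 6 libraries was left out, with adjusted p from 0.0508 to 0.166, and with a replicate block (0.111). Without the 13 libraries with a count peak, the change over all weeks was -0.70 with an adjusted p of 0.126.

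Pdgfd, a ligand of the beta receptor that is released with a CUB domain and needs cleavage to become active, was also lower. Pdgfd counts in PyMT samples were 9.79, 154 and 39.1 (week 6), 79.2, 49.7 and 63.5 (week 8), 36.5, 127 and 60.6 (week 10) and 88.4, 98.3 and 69.3 (week 12). Pdgfd reached 232, 94.9 and 218 (week 6), 391, 138 and 184 (week 8), 213, 160.3 and 211 (week 10) and 157, 170.1 and 212 (week 12) in FVB samples. PyMT values lay below FVB values at weeks 8, 10 and 12, while at week 6 PyMT replicate 2, at 154, exceeded FVB replicate 2, at 94.9. The fold over all weeks was 2.70 (log2 fold change -1.44 ± 0.31 SE, edgeR quasi-likelihood test, adjusted p = 0.000385). Week 8 (-1.87 ± 0.49 SE, adjusted p = 0.0473) and week 12 (-1.03 ± 0.30 SE, adjusted p = 0.0370) passed, and weeks 6 and 10 did not (-1.45 and -1.36, adjusted p of 0.323 and 0.124). Leaving out any 1 of the 6 libraries of week 8 ended that call (adjusted p of 0.0597 to 0.127), and leaving out any library of week 12 except FVB replicate 2 ended the call of that week. A replicate block ended both calls (edgeR, adjusted p of 0.0509 and 0.0866).

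Pdgfc, the alpha receptor ligand with a CUB domain, was the ligand without a call in any week. Pdgfc counts in PyMT samples were 223, 595 and 507 (week 6), 433, 547 and 365 (week 8), 351, 461 and 577 (week 10) and 533, 545 and 346 (week 12). Pdgfc reached 351, 541 and 596 (week 6), 382, 576 and 535 (week 8), 363, 424 and 279 (week 10) and 223, 363 and 341 (week 12) in FVB samples. The ranges over 12 samples were nearly the same, 223 to 595 in PyMT and 223 to 596 in FVB samples, and the groups overlapped at every age. The difference over all weeks was 0.18 ± 0.17 (SE) on the log2 scale, with a 95% interval from -0.16 to 0.52 and an adjusted p of 0.376 in the edgeR quasi-likelihood test. In single weeks it was -0.17, -0.15, 0.42 and 0.66, with adjusted p of 0.809, 0.749, 0.364 and 0.0964.

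Because ligands of different length collect reads in proportion to it, levels between genes were compared per kilobase of exon. The summed ligand level was 97.7 to 221 normalized counts per kb in PyMT samples (median 169.8) and 266.9 to 470.4 in FVB samples (median 347.6). Pdgfc made up 42.2% to 68.7% of that sum in PyMT samples, with a median of 52.9%, compared with 14.9% to 31.4% in FVB samples, with a median of 22.8%. Pdgfb made up 0.766% to 33.4% in PyMT samples (median 20.9%) and 33.2% to 62.6% in FVB samples (median 44.3%). The share of Pdgfc was thus higher in each of the 12 PyMT samples than in any of the 12 FVB samples. This follows from the lower counts of the other ligands and the similar counts of Pdgfc, and is no separate result. The shares of Pdgfa had medians of 12.4% and 14.0%, and those of Pdgfd 13.0% and 17.8%, in PyMT and FVB samples. These shares were computed after the values were seen and carry no test.

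**Figure D2:**
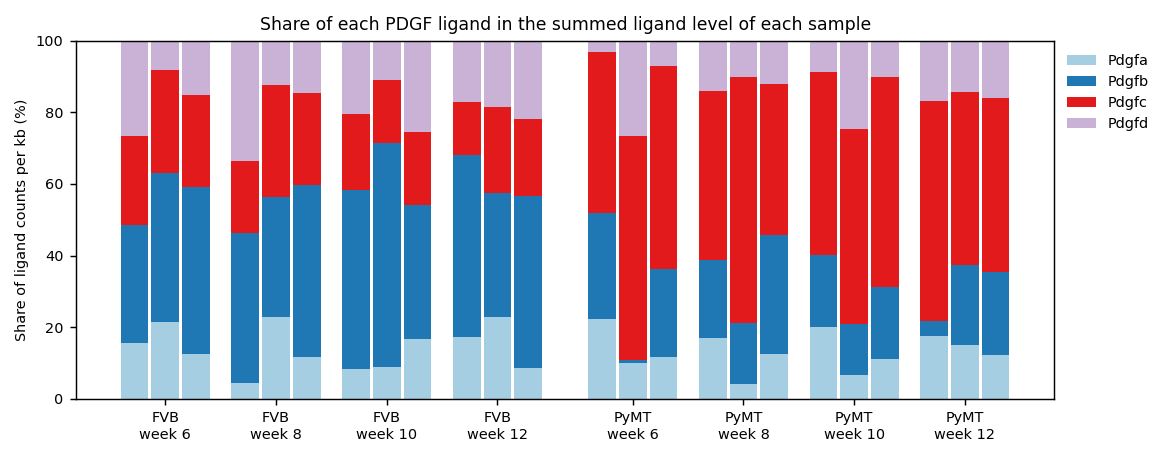
Share of each PDGF ligand (%) in the summed ligand counts per kb of each sample, one stacked bar per sample with FVB on the left and PyMT on the right. The Pdgfc segment takes 42.2% to 68.7% of the PyMT bars and 14.9% to 31.4% of the FVB bars.

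Both receptors were lower at each age. Pdgfra, the alpha receptor of fibroblasts and other mesenchymal cells, had the smallest standard error of the 8 genes over all weeks. Pdgfra counts in PyMT samples were 436, 557 and 617 (week 6), 614, 399 and 664 (week 8), 479.6, 699 and 479 (week 10) and 748, 799 and 376 (week 12). Pdgfra reached 2048, 2052 and 2462 (week 6), 2346, 2695 and 2929 (week 8), 2694, 2388 and 2293 (week 10) and 2970.3, 2434 and 4734 (week 12) in FVB samples. The highest PyMT value, 799, was less than the lowest FVB value, 2048. Pdgfra was 4.56-fold lower over all weeks (log2 fold change -2.19 ± 0.13 SE, edgeR quasi-likelihood test, adjusted p = 5.97e-12). The log2 fold changes of the 4 weeks were -2.03 ± 0.20, -2.23 ± 0.25, -2.12 ± 0.21 and -2.35 ± 0.35 (SE), each called, with adjusted p of 0.00156, 0.00443, 0.000655 and 0.00200.

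Pdgfrb, the beta receptor of pericytes and vascular smooth muscle, which fibroblasts also carry, followed. Pdgfrb counts in PyMT samples were 430.0, 445 and 782 (week 6), 278, 189 and 629.9 (week 8), 436, 393 and 346 (week 10) and 542, 374 and 250.4 (week 12). Pdgfrb reached 1122, 1715 and 1914 (week 6), 1953, 1546 and 1983 (week 8), 2245, 1911 and 992 (week 10) and 1619.7, 1875 and 2257 (week 12) in FVB samples. PyMT values reached 782 and FVB values started at 992, the latter in FVB week 10 replicate 3, the library with the most genes at 0. The fold over all weeks was 4.13 (log2 fold change -2.05 ± 0.20 SE, edgeR quasi-likelihood test, adjusted p = 5.41e-09), and by week -1.51 ± 0.31, -2.29 ± 0.44, -2.09 ± 0.31 and -2.26 ± 0.28 (SE), with adjusted p of 0.0170, 0.0180, 0.00383 and 0.000987. The call of week 6 was lost without PyMT week 6 replicate 1, PyMT week 6 replicate 2, FVB week 6 replicate 2 or FVB week 6 replicate 3 (adjusted p of 0.0815, 0.0536, 0.061 and 0.0516), and that of week 8 without PyMT week 8 replicate 1 or FVB week 8 replicate 2 (0.0825 and 0.0535).

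Both pericyte genes were lower at each age as well. Rgs5, which dampens signalling of G protein-coupled receptors in pericytes, had the highest level per kb of the 8 genes. Rgs5 counts in PyMT samples were 800.3, 799 and 776 (week 6), 873, 732 and 915 (week 8), 697, 724 and 519 (week 10) and 993, 669.9 and 499.9 (week 12). Rgs5 reached 2889, 2591 and 3822 (week 6), 4145, 2734 and 3576 (week 8), 3108, 5795 and 3474 (week 10) and 2434, 3471 and 2929 (week 12) in FVB samples. PyMT values reached 993 and FVB values started at 2434, and the 3 PyMT samples of week 6 lay between 776 and 800.3. Rgs5 was 4.48-fold lower over all weeks (log2 fold change -2.17 ± 0.14 SE, edgeR quasi-likelihood test, adjusted p = 8.71e-12). Its log2 fold changes were -1.97 ± 0.20, -2.04 ± 0.23, -2.63 ± 0.29 and -1.99 ± 0.27 (SE) from week 6 to week 12, with adjusted p of 0.00165, 0.00433, 0.00106 and 0.00135.

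Cspg4, the NG2 proteoglycan of pericytes, which glial progenitors and some other cells also carry, showed the largest difference. Cspg4 counts in PyMT samples were 271, 424 and 166 (week 6), 205, 128 and 226 (week 8), 81.0, 65.0 and 125 (week 10) and 143, 100.4 and 149 (week 12). Cspg4 reached 1365, 1152 and 782 (week 6), 2093, 928 and 636 (week 8), 947, 598 and 1109.5 (week 10) and 1996, 537 and 1824 (week 12) in FVB samples. The highest PyMT value was 424, at week 6, and the lowest FVB value 537, at week 12. Over all weeks Cspg4 was 7.12-fold lower (log2 fold change -2.83 ± 0.26 SE, edgeR quasi-likelihood test, adjusted p = 3.28e-09). The weekly log2 fold changes were -1.96 ± 0.36, -2.69 ± 0.48, -3.24 ± 0.36 and -3.42 ± 0.47 (SE), with adjusted p of 0.0114, 0.0137, 0.00110 and 0.00145. The calls of weeks 6 and 8 were lost without replicate 1 of the PyMT samples of that week (adjusted p of 0.0592 and 0.0612).

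**Figure D3:**
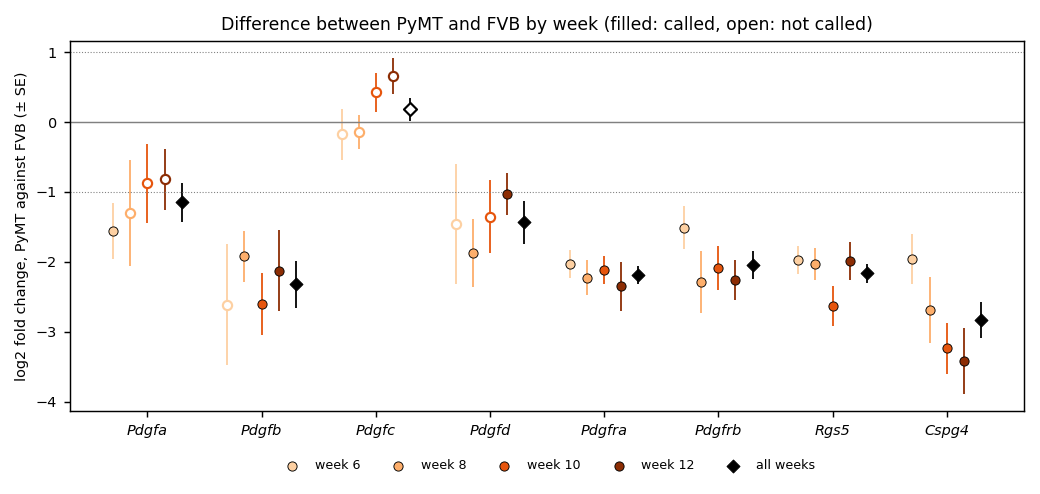
Log2 fold change of each gene, PyMT against FVB, with its SE, for each week (circles) and for all weeks (diamonds); filled symbols passed the call and dotted lines mark a 2-fold change. Pdgfra and Rgs5 lie between -2.63 and -1.97 at every age, and the points of Pdgfc lie between -0.17 and 0.66.

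The samples of the groups did not overlap for 6, 6, 7 and 6 members from week 6 to week 12, in each case with PyMT below, as held for 20.4%, 21.7%, 21.6% and 25.2% of all genes. No member had all PyMT samples above, against 16.2%, 18.4%, 18.9% and 21.5% of all genes. With all 12 PyMT samples against all 12 FVB samples, 5 members (Pdgfb, Pdgfra, Pdgfrb, Rgs5 and Cspg4) lay entirely below, compared with 7.22% of all genes, and none entirely above, compared with 4.67%.

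The change of these differences with age was tested in a fit of all 8 groups. Between week 12 and week 6 no member was called for a change of its PyMT minus FVB difference in the edgeR quasi-likelihood test. None of the 14918 genes was called either (0.0%), while 691 genes had an unadjusted p below 0.05. Cspg4 was the member with an unadjusted p below 0.05 (interaction of -1.48 ± 0.65 SE on the log2 scale, unadjusted p = 0.0334, adjusted p = 1.0), and DESeq2 and limma voom likewise called 0 members. For the carcinoma ages (weeks 10 and 12) against the earlier ones (weeks 6 and 8), Pdgfc (0.69 ± 0.32 SE, unadjusted p = 0.0398, adjusted p = 0.893) and Cspg4 (-1.02 ± 0.46 SE, unadjusted p = 0.0375, adjusted p = 0.879) were the members with an unadjusted p below 0.05, as were 817 genes, and 0 members and 0.0% of genes were called. The intervals were wide: for Pdgfb the 95% interval of the change from week 6 to week 12 ran from -1.52 to 2.47, and for Rgs5 from -0.77 to 0.72.

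Within PyMT samples, week 12 against week 6 gave 0 called members and 0.0% of genes in the edgeR quasi-likelihood test. Cspg4 had the lowest unadjusted p (log2 fold change -1.11 ± 0.47 SE, unadjusted p = 0.0271, adjusted p = 0.634), with mean counts of 287, 187, 90.2 and 131 from week 6 to week 12. FVB samples likewise gave 0 called members and 0.0% of genes, with unadjusted p below 0.05 for Pdgfc (-0.71 ± 0.32 SE, unadjusted p = 0.0357) and Pdgfra (0.59 ± 0.27 SE, unadjusted p = 0.0398), both with an adjusted p of 1.0. Unadjusted p was below 0.05 for 1004 genes in PyMT and 626 genes in FVB samples. DESeq2 and limma voom called 0 members in both series.

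The order of the levels differed between the genotypes. Per kb, the means of 12 FVB samples were 750.5 ± 200.1 (SD) for Rgs5, 396.4 ± 106.0 for Pdgfra, 321.5 ± 71.6 for Pdgfrb, 158.1 ± 56.6 for Pdgfb, 144.6 ± 67.8 for Cspg4, 81.4 ± 23.7 for Pdgfc, 63.7 ± 23.2 for Pdgfd and 48.6 ± 20.2 for Pdgfa. In the 12 PyMT samples they were 164.8 ± 32.0 (SD) for Rgs5, 89.8 ± 22.6 for Pdgfc, 85.0 ± 20.8 for Pdgfra, 77.5 ± 30.2 for Pdgfrb, 31.2 ± 16.0 for Pdgfb, 23.4 ± 12.9 for Pdgfd, 21.6 ± 12.3 for Cspg4 and 21.5 ± 7.89 for Pdgfa. Pdgfc stood in place 6 of 8 in FVB and in place 2 in PyMT samples, with similar means of its own (81.4 and 89.8), as the other members were lower. Neighbours in either order differed by less than the larger of their SDs, except Rgs5 against the gene after it in both genotypes, Pdgfrb against Pdgfb in both.

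The vessel and stroma genes around the members also differed, and their part in the results was not tested. These lists, too, were chosen with earlier results known. All 12 endothelial genes were called lower over all weeks (17.2% of all genes were), with a median log2 fold change of -2.44. Their summed level was 1137 to 3011 in PyMT and 7621 to 13810 in FVB samples, and the largest changes were those of Vwf, which encodes von Willebrand factor (-3.05), and Cldn5, a tight junction protein of endothelium (-3.04). All 10 fibroblast genes were lower too, with a median of -1.84 and sums of 22610 to 46740 in PyMT and 52940 to 194200 in FVB samples, led by the matrix genes Dcn (-2.93) and Dpt (-2.84). All 8 adipocyte genes were lower (median -3.95), with the adipokines Retn (-4.69) and Lep (-4.34) leading. Of 8 luminal epithelial genes, 7 were higher (8.51% of all genes were) and none lower (median 1.78), among them the transcription factor Elf5 (2.29) and the adhesion molecule Epcam (2.04).

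Other genes of mural cells moved mostly down. Of 14 listed mural genes 12 were tested, 9 were lower and 1 was higher, with a median log2 fold change of -2.28. In this fit over all weeks 17.2% of all genes were lower and 8.51% higher. Des, the intermediate filament desmin of pericytes and muscle, fell by 3.85 on the log2 scale, and Foxs1, a transcription factor of pericytes, fell by 3.26. Skeletal muscle genes summed to between 81.05 and 537900 in FVB and between 0 and 30310 in PyMT samples, and the part of muscle RNA in the Des difference was not tested. All 8 muscle genes were called lower over all weeks (median -4.75). From week 6 to week 12, 0, 2, 0 and 6 muscle genes were called lower, against 6.46%, 6.37%, 9.13% and 13.0% of all genes. Among them were Pvalb (-5.02), a calcium-binding protein of fast fibres, and Ckm (-5.01), the muscle creatine kinase. The typical samples differed far less: the median of Pvalb was 9.08 counts in PyMT and 11.4 in FVB samples, with FVB values up to 18860. For Ckm the medians were 32.3 and 103.1, with FVB values up to 60590. Foxs1 was at 0 in 6 PyMT libraries and 1 FVB library. Anpep, an aminopeptidase of pericytes that mammary epithelium also makes, was the 1 mural gene called higher (1.56). Higd1b and Cox4i2 did not pass the filter, and their median level was below 10 counts, as was that of Ndufa4l2. Among 7 contractile genes of smooth muscle, which myoepithelium shares, 6 were lower and none higher (median -2.42), led by Cnn1 (-3.20) and Myh11 (-3.10). The 5 basal epithelial genes gave 2 lower and 0 higher calls (median -0.10), the oxytocin receptor Oxtr at -3.13 and the keratin Krt17 at -1.95.

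**Figure D4:**
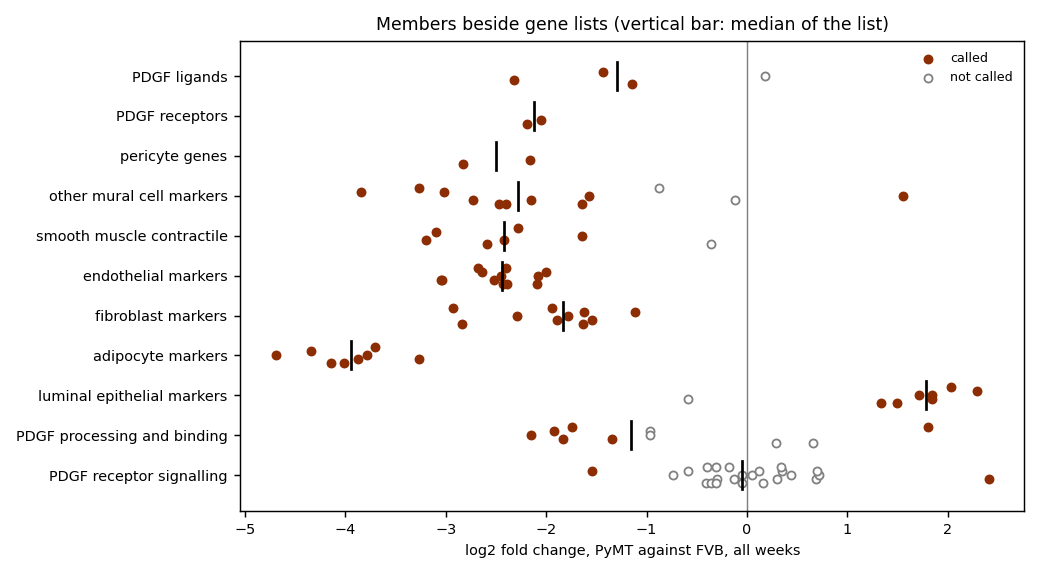
Log2 fold change over all weeks, PyMT against FVB, of each tested gene of 11 lists, filled where called and open where not, with a vertical bar at the median of the list. The receptors and pericyte genes lie among the endothelial (median -2.44), mural (-2.28) and fibroblast (-1.84) genes, and the receptor signalling genes centre on -0.05.

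Each member was then set against the level of endothelial or fibroblast genes in the same sample. The measure was log2(normalized count + 1) of the member minus the mean of the same value over the 12 endothelial or 10 fibroblast genes, compared between 12 PyMT and 12 FVB samples by an exact two-sided permutation test that exchanged genotypes within weeks, with Benjamini-Hochberg adjustment over 16 tests. Both references were themselves lower in PyMT samples, with median log2 fold changes of -2.44 (endothelial) and -1.84 (fibroblast). A gene with equal counts in both genotypes therefore also stands higher by this measure, and the median over all genes, -0.03, was near equal counts. The share of all genes that would pass was not computed, so the counts of members that passed cannot be called particular to the members. Relative to endothelial genes, 5 members were higher in PyMT samples and none lower. Pdgfc stood 2.70 higher on the log2 scale (95% interval 2.19 to 3.22, adjusted p = 0.0001 by the permutation test), with 1.25e-05 the smallest unadjusted p the test can give. Pdgfa was higher by 1.40 (0.757 to 2.05, adjusted p = 0.0016), Pdgfd by 0.95 (0.148 to 1.75, adjusted p = 0.0455), Pdgfrb by 0.45 (0.143 to 0.748, adjusted p = 0.0163) and Rgs5 by 0.38 (0.140 to 0.627, adjusted p = 0.0176, all by the exact permutation test). The differences of Pdgfra (0.33, interval 0.02 to 0.64, adjusted p = 0.0644), Pdgfb (-0.07, interval -0.998 to 0.851, adjusted p = 0.891) and Cspg4 (-0.22, interval -0.83 to 0.38, adjusted p = 0.484) did not pass the permutation test. Pdgfc was higher at all 4 ages, by 1.79, 2.43, 3.12 and 3.48 from week 6 to week 12. The median log2 fold change of the endothelial genes over the same weeks was -1.91, -2.52, -2.69 and -2.87.

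Relative to fibroblast genes, Pdgfc (2.16, interval 1.64 to 2.68, adjusted p = 0.0001) and Pdgfa (0.86, interval 0.35 to 1.36, adjusted p = 0.0027) were higher by the exact permutation test and none was lower. The receptors did not pass, with Pdgfra at -0.21 (-0.49 to 0.06, adjusted p = 0.183 by the permutation test) and Pdgfrb at -0.10 (-0.47 to 0.27, adjusted p = 0.622 by the permutation test). Pdgfra did pass as lower without replicate 2 of every group (-0.46, adjusted p = 0.0247) and with the log2 of the summed markers as the reference (-0.46, adjusted p = 0.0409, both by the permutation test). Cspg4 was 0.77 below (interval -1.48 to -0.05, adjusted p = 0.0669 by the permutation test), with weekly differences of -0.01, -0.28, -1.38 and -1.41, and it passed as lower with the summed markers (-1.02, adjusted p = 0.0409 by the permutation test). Rgs5 (-0.16), Pdgfd (0.40) and Pdgfb (-0.62) had intervals that included 0, though Pdgfd passed as higher without replicate 1 (1.1, adjusted p = 0.0185 by the permutation test). Without replicate 1 of every group the Pdgfa difference no longer passed against either reference (adjusted p of 0.0535 and 0.0917 by the permutation test), and without replicate 3 it failed against fibroblast genes (adjusted p = 0.0642). Pdgfd against endothelial genes fell to 0.31 without replicate 2 (adjusted p = 0.586 by the permutation test) and failed without replicate 3, at 1.06 (adjusted p = 0.163). Rgs5 did not pass without any 1 of the replicate numbers (0.31 to 0.49), and Pdgfrb did not without replicate 3 (0.345). Pdgfc passed against both references whichever replicate number was left out. Its own counts were not called different between genotypes (log2 fold change 0.18 over all weeks), so its ratios mostly carry the fall of the references. In the 11 libraries without a count peak the Pdgfc difference was 2.88 against endothelial and 2.23 against fibroblast genes, with no test.

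**Figure D5:**
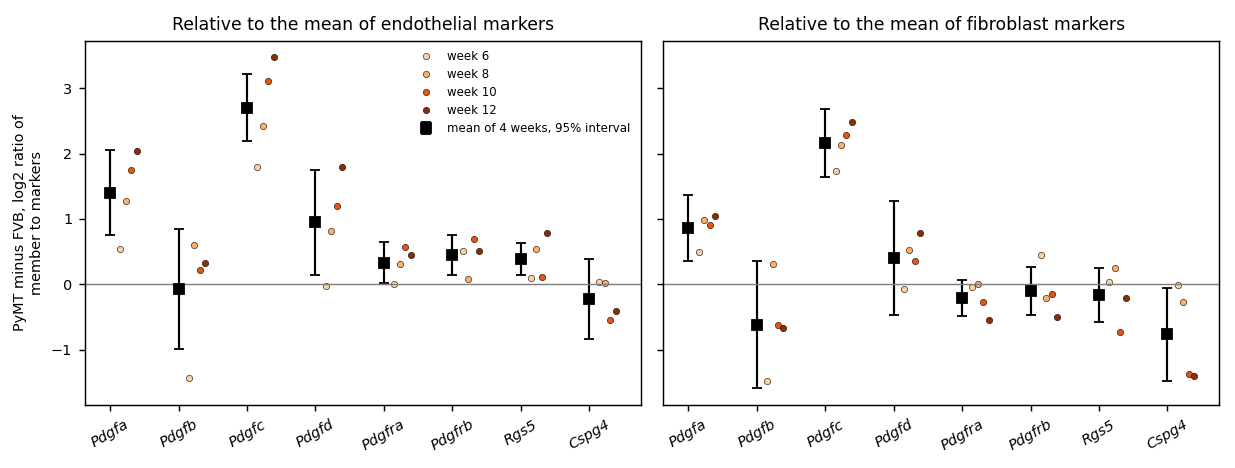
PyMT minus FVB difference of the log2 ratio of each member to the mean of endothelial genes (left) or fibroblast genes (right), with black squares for the mean of 4 weeks and its 95% interval and coloured points for single weeks. Pdgfc lies at 2.70 and 2.16, and the intervals of Pdgfra and Pdgfrb against fibroblast genes include 0.

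Of 10 genes that process or bind PDGFs, 5 were lower and 1 was higher over all weeks (median -1.16), where 17.2% of all genes were lower and 8.51% higher. The higher one was St14 (1.81), the epithelial protease matriptase, and the lower ones included Nrp1 (-2.15), a co-receptor of endothelium and mesenchyme, and Sparc (-1.92), a matrix protein that binds PDGF-B. Among 24 genes that act behind the receptors in many cell types, the median was -0.05, and beside the same shares of all genes 1 was lower and 1 higher. Those were the Src family kinase Fyn (-1.54) and the GTPase gene Hras1 (2.41), with Hras1 at 667.7 to 1970 counts in PyMT and 93.3 to 283 in FVB samples.

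The genes most like each member over the 24 samples were ranked by Pearson's r of log2(normalized count + 1) among 10388 genes with a mean of at least 100 counts. Samples fall into a PyMT and an FVB cluster, so the ranges of r within 12 PyMT and within 12 FVB samples stand beside it, all as a description. For Pdgfra these were Lrp1, Ccdc80 and Hip1, with r of 0.977 to 0.982 over 24 samples, 0.686 to 0.760 within PyMT and 0.730 to 0.841 within FVB. Ptprb, an endothelial phosphatase, Tshz2 and Col15a1 were most like Pdgfrb (0.964 to 0.968, within genotypes 0.818 to 0.866 and 0.495 to 0.705). Gpr116, Sdpr and Nrp1 came first for Rgs5 (0.973 to 0.979, within genotypes 0.641 to 0.768 and 0.635 to 0.726). The likeness of both receptors and Rgs5 to these genes was lower within a genotype than over both, which follows in part from choosing the genes by r over both. Mknk2, Tmem120b and Dgat1 led for Cspg4 (0.963 to 0.966, within genotypes 0.692 to 0.817 and 0.843 to 0.929). None of the genes named for Cspg4, Pdgfrb and Rgs5 is among the listed mural genes, and which cells gave these counts was not tested. Among ligands, Myl9, Apcdd1 and Pde3a led for Pdgfb (0.908 to 0.928), with 0.763 to 0.852 within PyMT and 0.556, 0.503 and -0.02 within FVB, so Pde3a did not follow Pdgfb among FVB samples. Rev3l, Obsl1 and Cdkn1c led for Pdgfa (0.796 to 0.838, within genotypes 0.704 to 0.775 and 0.404 to 0.825), and Crot, Arhgef12 and snoU90 for Pdgfd (0.863 to 0.879, within genotypes 0.752 to 0.790 and 0.444 to 0.793). Pdgfc had the lowest r over 24 samples, 0.705 to 0.711 with Mtap2, Bach2 and Slc44a1, and within genotypes 0.546 to 0.649 and 0.775 to 0.880.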

How the data were processed

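Per the labels and the study's methods, the authors aligned directional RNA-seq reads to mm9 with GSNAP and counted them per gene with HTSeq, and the deposited table holds raw counts for 37991 genes in 24 samples, 1 mouse each. The annotation release and strand setting of the counting are not given in the sources used here. Identifiers were matched to GENCODE M1. Genes with at least 1 CPM in at least 12 samples (14918) were tested with edgeR 4.0.16 (glmQLFit and glmQLFTest, TMM scaling, R 4.3.3), with 3 PyMT against 3 FVB samples per week, with week as a term over all 24, or with 8 group means for changes with age. A call needed an adjusted p below 0.05 and, except for changes of a difference, more than 2-fold. Normalized counts used DESeq2 1.42.0 size factors, and per-kb levels divided them by exon length. DESeq2, limma voom 3.58.1 and the other alternatives are described with their effect at the end. The pipeline was also run on simulated data in which 200 genes changed 4-fold. It recovered 48% of them at week 12 (11 of 107 calls wrong) and 78% over all weeks (1 of 157 wrong). For the change of a difference from week 6 to week 12 it recovered 35.5% (2 of 73 wrong), and within PyMT 58.5% (5 of 122 wrong). Ratios were compared by the exact permutation test in Python 3.11.15 over 160000 arrangements, and their intervals come from the spread within groups. No 2 samples of a group agreed within sampling noise. The members and lists were chosen with earlier results of these data known. All 8 members are named. Of the other lists, up to 4 called genes are named, the largest 2 each way over all weeks, and for each member the 3 genes of highest r. The result of 1 further marker list is not reported here.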

Additional observations from a re-analysis of the deposited data

How the results depend on the processing

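Over 104 results and 2166 alternative values, no called value changed sign. The calls of Pdgfra and Rgs5 in the single weeks and over all weeks held under each alternative run. The count of members called lower over all weeks was 7 and ranged from 6 to 7. At week 6 it was 5 and fell to 3 with library size only as scaling, under which the median over all genes in the fit of all weeks rose by 0.292. Leaving out 1 library gave 2 to 4 members at week 6 (2 without PyMT replicate 1, and 3 without FVB replicate 2 or 3) and 2 to 5 at week 8, where the main count was 6 and PyMT replicate 1 gave the 2. It gave 5 to 5 at week 10, 4 to 6 at week 12 and 7 to 7 over all weeks. The Pdgfa call over all weeks was lost with limma voom (-0.99) and with library size only (-0.88), where the fold came under 2, and without the 13 libraries with a count peak (-0.70), an alternative chosen after seeing the data that left 6 members called. The number of members whose ratio to endothelial genes differed was 5, and 2 to 3 when a replicate number was left out (3 without replicate 1 or 2 and 2 without replicate 3), and that for fibroblast genes was 2, both higher, and 4 with the log2 of summed markers, where Pdgfra and Cspg4 were added as lower. It was 1 to 3 without a replicate number, with Pdgfd added as higher without replicate 1 and Pdgfra as lower without replicate 2. Rgs5 against endothelial genes did not pass with TMM-scaled CPM (0.292, adjusted p = 0.0632 by the permutation test). The lowest PyMT normalized counts were 4.17 for Pdgfb, 9.79 for Pdgfd, 19.7 for Pdgfa and 65.0 for Cspg4, so counting error is a part of their spread.

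In the labels, samples with the same replicate number in a week share only that number, and whether they shared a litter or batch is not given. The correlation of their deviations from group means ran from -0.03 to 0.177 and passed 0.1 in 4 of 12 pairs. Those were replicate 3 at weeks 6, 8 and 10 (0.145, 0.177 and 0.164) and replicate 1 at week 10 (0.116). With a replicate block the counts of members called lower were 4, 5, 5 and 5 at weeks 6, 8, 10 and 12 and 7 over all weeks, with the calls of Pdgfa at week 6 (adjusted p = 0.111) and Pdgfd at weeks 8 (0.0509) and 12 (0.0866) lost. The paired test lost the Pdgfd ratio to endothelial genes (adjusted p = 0.101).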

Other observations

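Gene families related to the members were read from the same fit over all weeks, as values with no explanation. Among the 5 VEGF ligands, the angiogenic growth factors related to PDGFs, 4 were lower and 1 was higher (17.2% and 8.51% of all genes were), with Figf, which encodes VEGF-D, at -3.22 on the log2 scale, Vegfb at -2.30 and Pgf, placental growth factor, at 1.27 (edgeR quasi-likelihood test, adjusted p = 0.0462). Their summed level was 415.0 to 1180 counts in PyMT and 1387 to 3797 in FVB samples, so the groups did not overlap. Of 6 class III receptors and ligands, the kinase family that holds the PDGF receptors, 1 was lower, Flt3 (-2.51), which was at 0 in 6 PyMT libraries and 1 FVB library, and none was higher.

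In the R4 family of regulators of G protein signalling, to which Rgs5 belongs, 6 of 9 other members passed the filter. Of these 3 were lower and 1 was higher, where 17.2% and 8.51% of all genes were. Rgs4 (-2.41) and Rgs2 (-1.40) were lower, and Rgs1 (2.58), a gene of leukocytes, was higher, with 2 PyMT and 6 FVB libraries at 0. Rgs21 was at 0 in all samples. None of the 4 tested leukocyte genes was called in either direction (median 0.04) in the edgeR quasi-likelihood test.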
